A study of Mus musculus with 8 samples.

Results

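Genes that build the ribosome were described in 4T1 cells, a mouse mammary tumor line used as a model of triple-negative breast cancer, after treatment with a cell-entering single-domain antibody (sdAb). The set was a list of 49 genes for ribosome biogenesis and rRNA processing factors, chosen with earlier results of these data known. It was matched by gene symbol among 28712 genes listed in either deposited table, and all 49 were found and tested among 13947 genes. RNA was sequenced in 4 groups of 2 libraries, and the tables used here cover 3 of them, namely sdAb-Con for 48 h, sdAb#07.81 for 48 h and sdAb#07.81 for 24 h, each at 0.5 μg/ml. sdAb#07.81 binds NUPR1, a small stress-induced chromatin protein, and carries the C-degron of ornithine decarboxylase (cOdc1) to direct its target to the proteasome, and sdAb-Con is its control sdAb. All cells were of 1 line, were kept at 1% O2 and were treated after confluence, and the group labelled Con is not used here. No group received sdAb-Con for 24 h, so that a change of sdAb#07.81 from 24 h to 48 h cannot be told apart from a change with culture time alone.

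Ribosome biogenesis starts in the nucleolus, where RNA polymerase I copies the rRNA genes into one long precursor. Box C/D particles methylate this precursor and H/ACA particles convert selected uridines to pseudouridine. The small subunit processome and the large subunit assembly factors then cut, fold and export the 2 ribosomal subunits. The pathway consumes much of the energy of a growing cell, and many of its genes are known targets of Myc in proliferating cells.

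The deposited tables hold no column per library. Each table gives the mean over 4 libraries of counts divided by size factors, printed to 15 digits, and whole read counts per library were recovered from these means for 28698 genes. The 2 libraries present in both tables are those of sdAb#07.81 48 h, the group that both tables compare, and the other 2 of each table are those of its second group. Within a group the libraries are called a and b, because the recovered values carry no replicate number. Recovered totals ranged from 15439008 to 18343824 reads per library. These totals leave out 14 genes without counts, which hold 8.58% of the sum of the table that compares the 48 h groups. Levels are given as counts per 1000000 recovered reads (CPM) after median-of-ratios scaling. Differences are those of log2(CPM + 1), which understates changes of low genes. Standard errors (SE) and adjusted p-values are from limma over all genes tested. Nothing in the labels says that the 2 libraries of a group came from separate cultures. The p-values thus rest on the spread between these libraries, which may be technical. In the SE of a gene, the spread shared across genes (17.6 prior degrees of freedom) outweighs its own (3 residual). A shift shared by many factors in 1 library is not measured by these p-values.

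The epithelial markers Epcam, Cdh1, Krt7, Krt8, Krt18 and Krt19 added up to between 2740 and 3410 CPM per library, and the 4 endothelial markers to between 0.113 and 0.816 CPM. Of the 10 immune markers listed, 9 were in the tables and only Cd14 and Cd68 were abundant enough to be tested. Ptprc had at most 4 reads in a library. From 24 h to 48 h of sdAb#07.81, Cd14 was lower (log2 difference -1.04, SE 0.186, adjusted p = 0.000134) and Cd68 higher (1.12, SE 0.179, adjusted p = 3.86e-05). The 4 fibroblast markers added up to 61.9 and 74.2 CPM in 24 h libraries a and b and to between 39.8 and 43.1 CPM in the 48 h libraries. Nearly all of this was Pdgfra, which was lower at 48 h than at 24 h of sdAb#07.81 (log2 difference -0.76, SE 0.133, adjusted p = 0.000115). The other fibroblast markers tested, Dcn and Lum, did not pass, with log2 differences of 0.51 and 0.55 and with 3 and 0 reads in 24 h library b. Of the 6 epithelial markers, Cdh1 was higher at 48 h (log2 difference 0.63, SE 0.116, adjusted p = 0.000192), and none of these markers passed between the 48 h groups. The part of these markers in the results below was not tested. Nupr1, which encodes the target, was measured at 212 and 178 CPM in sdAb-Con 48 h, at 173 and 173 CPM in sdAb#07.81 48 h and at 92.2 and 127 CPM in sdAb#07.81 24 h. It did not pass the test between the 48 h groups (log2 difference -0.17, SE 0.132, adjusted p = 0.453). It was higher at 48 h than at 24 h of sdAb#07.81 (log2 difference 0.67, SE 0.132, adjusted p = 0.000346). Because the sdAb acts on the protein, this RNA level is no check of its depletion.

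Between 24 h and 48 h of sdAb#07.81, 42 of the 49 factors fell, none rose, and 7 did not pass the test. Over all genes tested, 22.4% were lower and 21.4% were higher at 48 h. Of 113 further genes of the pathway, described below, 59.3% were lower and 4.42% higher. Both lists were chosen with earlier results of these data known. The median log2 difference of the 49 factors was -0.70, a 1.63-fold lower level, against -0.01 over all genes tested. The fall was more than 2-fold for 13 factors, and each of the 6 roles below held factors that fell. In 41 of the 49 factors, all 4 libraries of 48 h, sdAb-Con included, lay below both libraries of 24 h, a pattern held by 28.8% of all genes tested. Removing the trend with the length and GC content of the longest transcript left 41 factors lower.

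**Figure D1:**
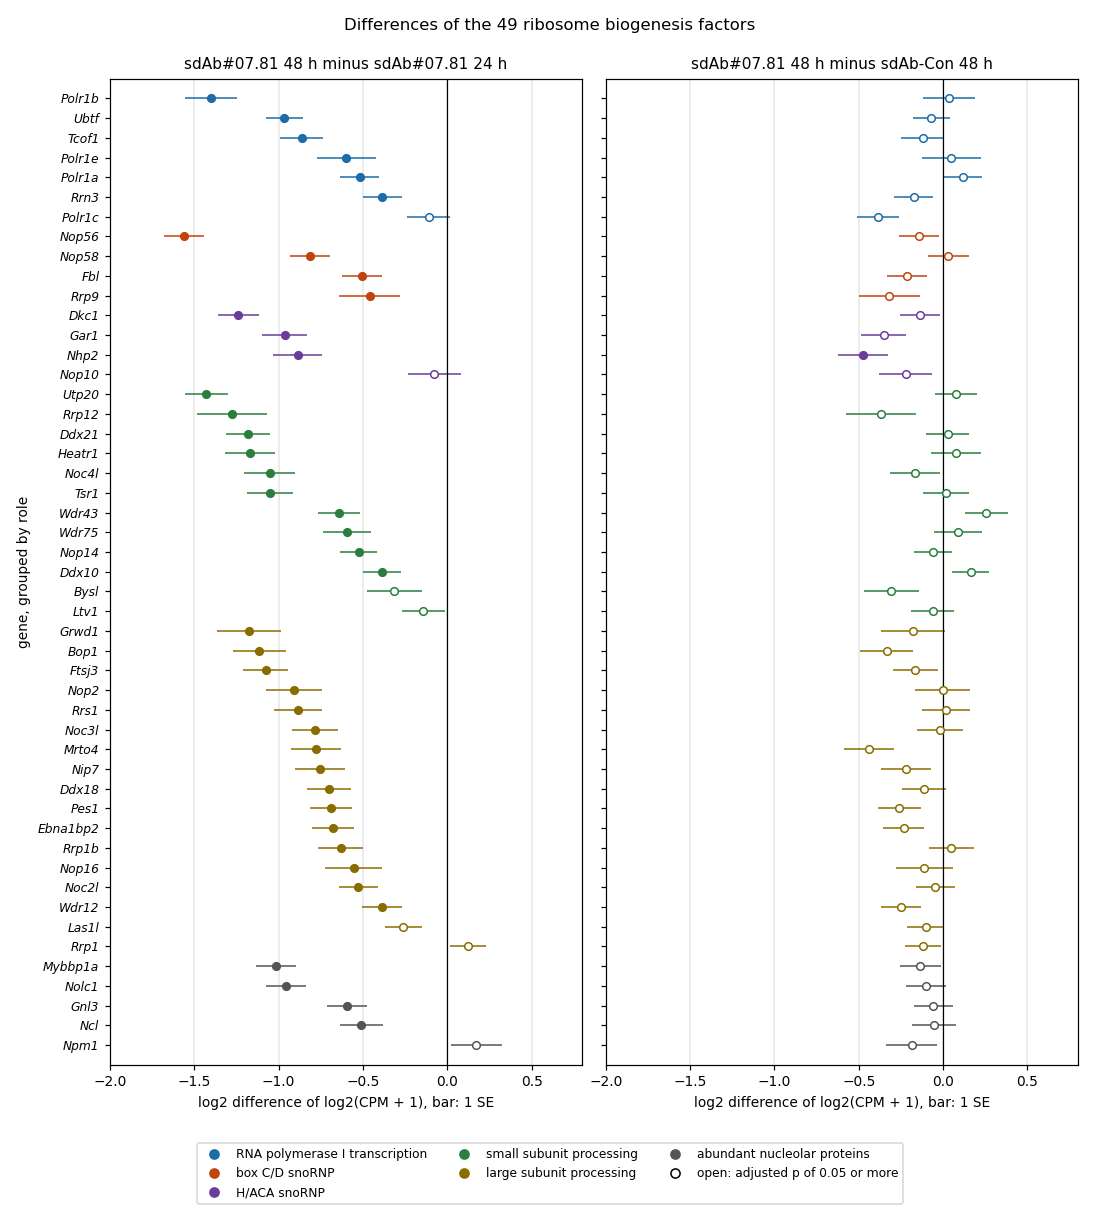
Log2 difference of each of the 49 factors (points) with 1 SE (bars), from sdAb#07.81 24 h to 48 h on the left and from sdAb-Con 48 h to sdAb#07.81 48 h on the right. Filled points passed the test over all genes tested, which 42 factors did on the left and 1 did on the right.

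RNA polymerase I and its initiation factors came first in the pathway, and 6 of 7 fell from 24 h to 48 h. Polr1b, the second largest subunit, stood at 56.7 and 47.9 CPM at 24 h and at 18.2 and 20.2 CPM at 48 h of sdAb#07.81, beside 16.0 and 21.9 CPM in sdAb-Con 48 h. Both 24 h libraries were thus far above all 48 h libraries, which overlapped with each other. Its log2 difference was -1.40 (SE 0.155, adjusted p = 4.48e-07), a 2.64-fold fall. Ubtf, the factor that binds and opens the rRNA gene promoter, fell by 0.97 on the log2 scale. Tcof1, which encodes the nucleolar protein treacle, fell by 0.86, Polr1e by 0.60 and Polr1a, the largest subunit, by 0.52. Rrn3, the initiation factor that couples the polymerase to growth signals, fell by 0.39. Polr1c, a subunit shared with RNA polymerase III, was the exception with a log2 difference of -0.11 (SE 0.126, adjusted p = 0.504). It also had the highest level per kb of the longest transcript among these 7 genes, at 66.3 CPM per kb over all libraries. Polr1c stood at 92.4 and 74.6 CPM at 24 h, at 70.3 and 84.1 CPM at 48 h of sdAb#07.81 and at 96.3 and 105 CPM in sdAb-Con 48 h, so that the 2 sdAb#07.81 groups overlapped and sdAb-Con lay above both.

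All 4 box C/D proteins in the set fell. Nop56, a scaffold protein of the particle, showed the steepest fall of the 49 factors. It was measured at 345 and 270 CPM at 24 h, at 101 and 105 CPM at 48 h of sdAb#07.81 and at 113 and 115 CPM in sdAb-Con 48 h. The 48 h libraries sat close together, at less than the lower 24 h library by a wide margin. The log2 difference was -1.56 (SE 0.119, adjusted p = 2.27e-09), a 2.95-fold fall. Its paralog and partner Nop58 fell by 0.82 on the log2 scale, and Fbl, the methyltransferase fibrillarin, by 0.51. Fbl had the highest level per kb of the longest transcript of the 4, at 70.6 CPM per kb, and gave 222 and 184 CPM at 24 h, 136 and 149 CPM at 48 h of sdAb#07.81 and 157 and 174 CPM in sdAb-Con 48 h. Rrp9, which binds the U3 particle, passed narrowly, with a log2 difference of -0.46 (SE 0.18, adjusted p = 0.044), and its libraries overlapped between times. It stood at 40.2 and 24.5 CPM at 24 h, at 20.1 and 25.3 CPM at 48 h of sdAb#07.81 and at 26.5 and 30.4 CPM in sdAb-Con 48 h. Its call was lost in 7 settings, namely upper-quartile scaling, a pseudocount of 4, no filter, voom, a fit of only the 2 groups compared, without 48 h library a of sdAb#07.81 (log2 difference -0.30) and without 24 h library a (-0.12).

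Of the 4 H/ACA proteins, 3 fell. Dkc1, the pseudouridine synthase dyskerin that is mutated in dyskeratosis congenita, stood at 148 and 130 CPM at 24 h, at 56.8 and 59.6 CPM at 48 h of sdAb#07.81 and at 58.3 and 70.4 CPM in sdAb-Con 48 h. Its log2 difference was -1.24 (SE 0.121, adjusted p = 8.08e-08), a 2.36-fold fall. Gar1 fell by 0.97 and Nhp2 by 0.89 on the log2 scale, both core proteins of the particle. Nop10, the smallest core protein, was measured at 35.1 and 24.2 CPM at 24 h and at 25.5 and 29.9 CPM at 48 h of sdAb#07.81, and these libraries overlapped. Its log2 difference was -0.08 (SE 0.159, adjusted p = 0.725).

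Of the 12 factors of the small subunit, 10 fell. Utp20, a very large scaffold protein of the processome, gave 178 and 148 CPM at 24 h, 60.2 and 59.0 CPM at 48 h of sdAb#07.81 and 50.9 and 62.5 CPM in sdAb-Con 48 h. Here the 48 h groups overlapped and both lay far below 24 h. The log2 difference was -1.43 (SE 0.125, adjusted p = 1.82e-08), a 2.69-fold fall. Rrp12, an export factor of the subunit, fell by 1.28 on the log2 scale, the RNA helicase Ddx21 by 1.18 and Heatr1, a processome protein that also acts on rRNA transcription, by 1.17. Noc4l and Tsr1, assembly factors of the small subunit, each fell by 1.05. Among the processome proteins with smaller falls, Wdr43 fell by 0.64 on the log2 scale, Wdr75 by 0.59, Nop14 by 0.53 and the helicase Ddx10 by 0.39. The log2 difference of Wdr75 was -0.33 without 24 h library a, and its call was lost without a filter. Wdr43 had the highest level per kb of the longest transcript of this group, at 74.6 CPM per kb, and stood at 410 and 305 CPM at 24 h, at 217 and 235 CPM at 48 h of sdAb#07.81 and at 190 and 188 CPM in sdAb-Con 48 h. The exceptions were the late factors Bysl, with a log2 difference of -0.32 (SE 0.164, adjusted p = 0.126), and Ltv1, with -0.14 (SE 0.126, adjusted p = 0.38).

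Of the 17 factors of the large subunit, 15 fell. Grwd1, a WD-repeat protein of the nucleolus, was measured at 39.1 and 24.0 CPM at 24 h, at 12.3 and 13.7 CPM at 48 h of sdAb#07.81 and at 12.8 and 17.2 CPM in sdAb-Con 48 h. The groups of 24 h and 48 h did not overlap, although the 24 h libraries were far apart. Its log2 difference was -1.18 (SE 0.192, adjusted p = 5e-05), a 2.26-fold fall. The 3 members of the PeBoW complex, which processes the precursor of the large subunit, fell unequally, with Bop1 falling by 1.12 on the log2 scale, Pes1 by 0.69 and Wdr12 by 0.39. The rRNA methyltransferase Nop2 fell by 0.91 and Ftsj3, a methyltransferase of the precursor, by 1.08. Noc2l fell by 0.53 and Noc3l by 0.79, both of the NOC family. Of the remaining assembly factors, Rrs1 fell by 0.88, Mrto4 by 0.78, Nip7 by 0.76, the helicase Ddx18 by 0.70, Ebna1bp2 by 0.68, Rrp1b by 0.63 and Nop16 by 0.56. The log2 difference of Nop16 was -0.20 without 24 h library a and -0.46 without 48 h library a of sdAb#07.81. Its call was lost without a filter. Las1l, a nuclease that cuts the spacer between the rRNAs of the large subunit, did not pass the test, with a log2 difference of -0.26 (SE 0.11, adjusted p = 0.0605). Rrp1, a relative of Rrp1b, gave 223 and 212 CPM at 24 h, 229 and 245 CPM at 48 h of sdAb#07.81 and 254 and 262 CPM in sdAb-Con 48 h. It thus lay slightly higher in all 48 h libraries, with a log2 difference of 0.12 (SE 0.106, adjusted p = 0.371), and had the highest level per kb of the longest transcript of the group, at 119.6 CPM per kb.

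Among 5 abundant nucleolar proteins, 4 fell. Mybbp1a, a large nucleolar protein that interacts with Myb, gave 561 and 473 CPM at 24 h, 251 and 257 CPM at 48 h of sdAb#07.81 and 254 and 308 CPM in sdAb-Con 48 h. Its log2 difference was -1.02 (SE 0.121, adjusted p = 1.15e-06), a 2.02-fold fall. Nolc1, a chaperone of the small nucleolar particles, fell by 0.96 on the log2 scale, Gnl3, the GTPase nucleostemin, by 0.60 and Ncl, nucleolin, by 0.51. Npm1, the histone chaperone nucleophosmin, did not follow them. It stood at 2631 and 2792 CPM at 24 h, at 2959 and 3154 CPM at 48 h of sdAb#07.81 and at 3940 and 3068 CPM in sdAb-Con 48 h, all 48 h libraries above both 24 h libraries. The log2 difference was 0.17 (SE 0.15, adjusted p = 0.372). Its counts are the best of 3 solutions, and how reads shared with pseudogene copies were counted was not examined. Its values are thus less certain than those of the other 48 factors, whose counts had 1 solution each. With 1893 CPM per kb of the longest transcript it had the highest level of the set, 384 times that of Polr1e, the lowest, at 4.93 CPM per kb. The order within a role depended on the length used. Per kb of the median transcript length, Nop58 stood above Fbl at 507 against 248 CPM per kb, Ddx21 above Wdr43 at 497 against 388, and Dkc1 above Nhp2 at 132 against 51.6. With the longest transcript, the median of the 49 factors was 27.0 CPM per kb, beside 8.48 CPM per kb over 13786 genes tested with a transcript length.

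**Figure D2:**
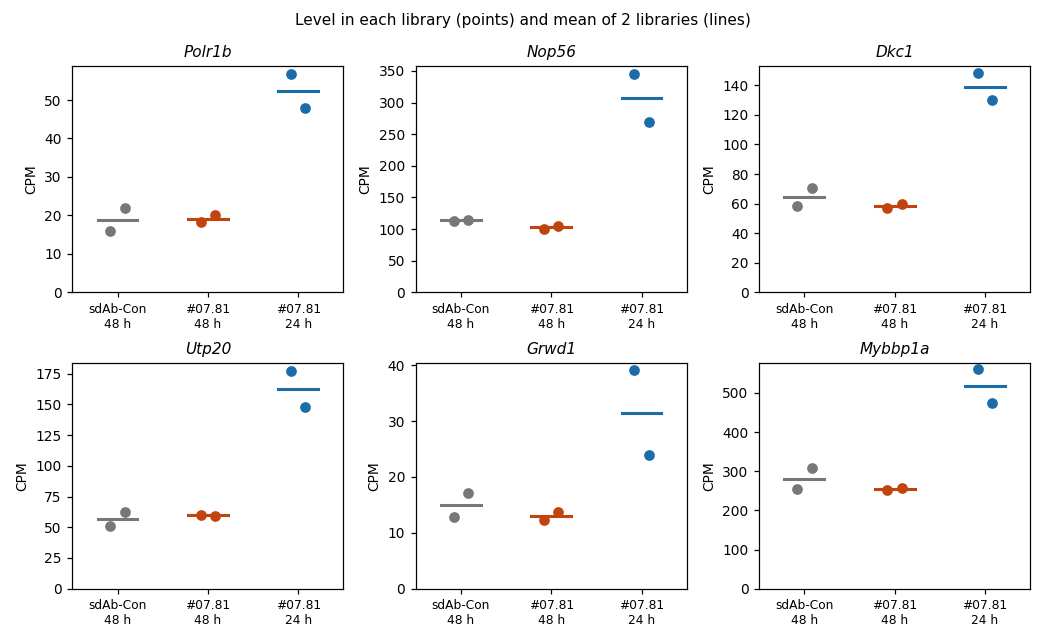
CPM in each library (points) and the mean of the 2 libraries (lines) for the factor with the largest change from 24 h to 48 h in each role. In all 6 genes both sdAb#07.81 24 h libraries lie above the 4 libraries of 48 h, for example at 345 and 270 CPM against 101 to 115 CPM for Nop56.

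For these factors the 2 libraries of 24 h differed from each other more than those of the other groups. Library a exceeded library b in 48 of 49 factors, with a median of 1.23-fold, whereas 51.1% of all genes tested were higher in library a. The exception was Npm1. The ratio of library a to library b reached 1.66 for Nop16 and Rrp12. In sdAb-Con 48 h library a was the higher one in 12 factors, beside 52.3% of all genes tested, with a median difference of 1.14-fold. In sdAb#07.81 48 h library a was the higher one in 9 factors, beside 49.8%, with 1.07-fold. On the log2 scale the sdAb-Con median was -0.185 for library a minus b, beside -0.113 between the agents at 48 h. Without 24 h library a, 34 factors were lower and the median log2 difference was -0.52, and without library b these were 44 factors and -0.92. The 8 calls lost without library a were those of Rrn3, Nop16, Wdr75, Wdr12, Ncl, Polr1e, Rrp9 and Ddx10. Of the fibroblast markers, Dcn had 52 reads in library a and 3 in library b and Lum had 38 and 0, whereas Pdgfra had 1042 and 1304. The part of these differences in the result was not tested.

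**Figure D3:**
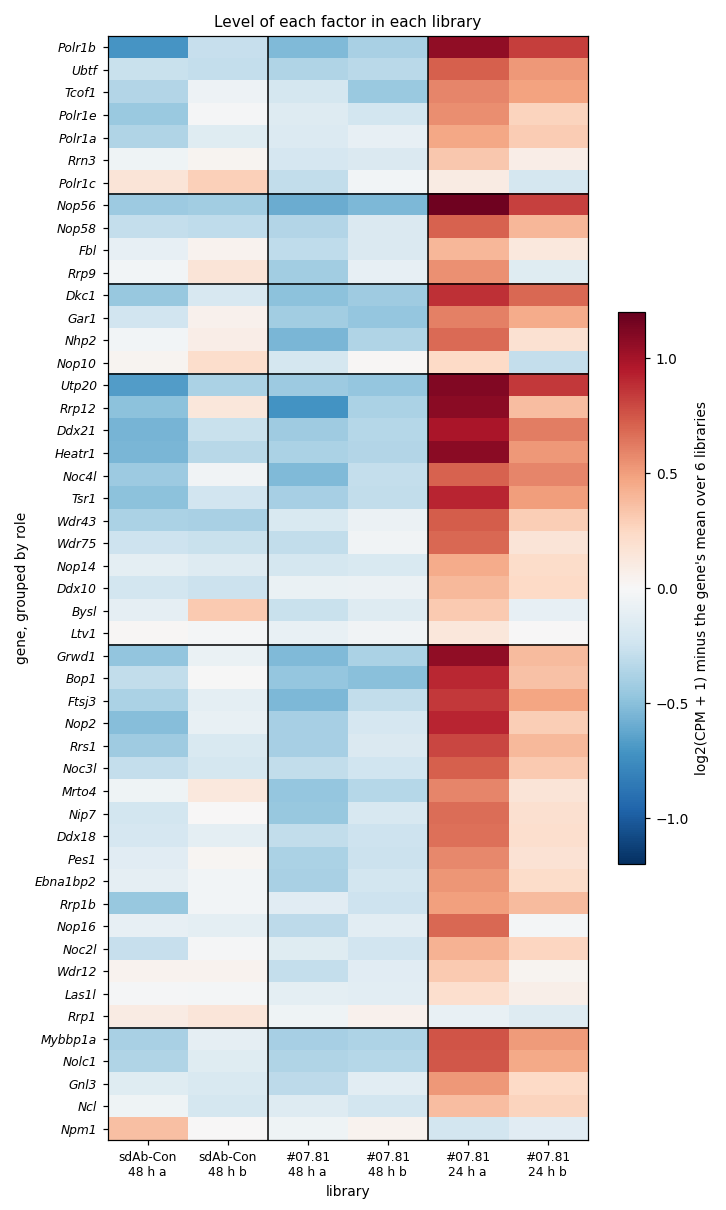
Log2(CPM + 1) of each factor minus its mean over 6 libraries, by library (columns) and role (black lines). Library a of 24 h is the highest column, with a median over the 49 factors of 0.66, library b of 24 h follows with 0.27, and the 4 libraries of 48 h lie between -0.35 and -0.08.

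The question of the second comparison was whether sdAb#07.81 and sdAb-Con differed at 48 h, when both agents had been present for the same time. Of the 49 factors 1 was lower and 0 were higher, against 3.94% of all genes tested that were lower and 6.94% that were higher in sdAb#07.81. At an unadjusted p under 0.05 there were 6, namely Nhp2, Polr1c, Mrto4, Gar1, Bop1 and Wdr12, all with lower levels in sdAb#07.81, beside 27.1% of all genes tested. Over all genes, 968 were higher and 550 lower, and with upper-quartile scaling 819 were higher and 821 lower. The median log2 difference of the 49 factors was -0.11, beside -0.02 over all genes tested, and 36 of 49 were negative, beside 52.8% of all genes. That median was -0.18 without sdAb-Con 48 h library a and -0.08 without library b. In 21 factors both sdAb#07.81 libraries lay below both sdAb-Con libraries, a pattern held by 31.0% of all genes tested, and in 26 factors the libraries overlapped. At the median SE of the factors, the half-width of the unadjusted 95% interval of a difference was 0.27 on the log2 scale or 1.21-fold.

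Nhp2 was the factor that passed. It stood at 45.2 and 48.9 CPM in sdAb-Con 48 h and at 31.3 and 36.0 CPM in sdAb#07.81 48 h, without overlap, beside 75.1 and 52.6 CPM at 24 h. The log2 difference was -0.47 (SE 0.146, adjusted p = 0.041), or 1.39-fold lower. It passed in 6 of 13 alternative settings, with adjusted p-values between 0.00908 and 0.356, and it did not pass with total count scaling, with voom, without a filter, with the trend of length and GC content removed, without either sdAb-Con library or without sdAb#07.81 48 h library a. With the trend removed the log2 difference itself was -0.25, and in the other 6 of these settings it lay between -0.54 and -0.38. The other 3 H/ACA proteins were also measured at lower levels in sdAb#07.81, with log2 differences of -0.35 for Gar1, -0.22 for Nop10 and -0.14 for Dkc1, none of which passed. With the trend removed, these were -0.12, -0.09 and -0.17. Nhp2 also had the highest level per kb of the longest transcript among these 4 genes, at 46.3 CPM per kb.

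None of the other roles held a factor that passed between the 48 h groups. Polr1c, with its values given above, had a log2 difference of -0.39 (SE 0.126, adjusted p = 0.0535). The other 6 genes of RNA polymerase I transcription lay between -0.17 for Rrn3 and 0.12 for Polr1a. In the box C/D particle the range ran from -0.32 for Rrp9 (SE 0.18, adjusted p = 0.269) over -0.21 for Fbl and -0.14 for Nop56 to 0.03 for Nop58. The Rrp9 value was -0.16 without sdAb#07.81 48 h library a and -0.48 without library b. With the trend of length and GC content removed it was -0.11.

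For the small subunit the 12 differences centred on 0.02, with 5 negative values. With the trend of length and GC content removed, only Wdr43, Wdr75 and Ddx10 had positive values. Rrp12 had the largest difference, at 16.6 and 26.3 CPM in sdAb-Con 48 h against 14.1 and 18.0 CPM in sdAb#07.81 48 h, beside 51.6 and 31.1 CPM at 24 h. These 48 h libraries overlapped, and the log2 difference was -0.37 (SE 0.208, adjusted p = 0.267). This value was -0.05 without sdAb-Con 48 h library b and -0.69 without library a. Wdr43 had the highest difference of the 49 factors, 0.26 (SE 0.125, adjusted p = 0.193), and with Ddx10 it was one of 2 factors with both sdAb#07.81 libraries above both sdAb-Con libraries, a pattern held by 27.9% of all genes tested. The remaining values ran from -0.31 for Bysl to 0.16 for Ddx10. Of the 6 factors of this role that fell more than 2-fold over time, Utp20, Ddx21, Heatr1 and Tsr1 had log2 differences of 0.08, 0.03, 0.08 and 0.02 between the agents, and Rrp12 and Noc4l had -0.37 and -0.17. With the trend of length and GC content removed, the values in this order were -0.19, -0.08, -0.11, -0.002, -0.35 and -0.008, and none passed.

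For the large subunit 15 of 17 differences were negative, with a median of -0.12. With the trend of length and GC content removed, Nop2, Nop16, Rrp1, Rrp1b, Rrs1 and Noc2l had positive values. Mrto4, a factor that resembles a stalk protein of the ribosome, stood at 33.4 and 38.0 CPM in sdAb-Con 48 h and at 24.9 and 27.2 CPM in sdAb#07.81 48 h, without overlap, beside 52.7 and 38.9 CPM at 24 h. Its log2 difference was -0.44 (SE 0.146, adjusted p = 0.0557). Mrto4 and Polr1c both passed with upper-quartile scaling and with a fit of only the 2 groups compared, and Polr1c also without sdAb#07.81 48 h library b. With the trend of length and GC content removed, neither passed and the log2 differences were -0.21 for Mrto4 (adjusted p = 0.4) and -0.18 for Polr1c (adjusted p = 0.384). The others ran from -0.34 for Bop1 to 0.05 for Rrp1b. Wdr12, at -0.25, had -0.67 (adjusted p = 0.0138) with the same trend removed, and passed in that setting, in which Nhp2 did not. The trend used the longest transcript, which for Wdr12 has 10012 bases beside a median of 789 over its transcripts. The 5 abundant nucleolar proteins lay between -0.19 for Npm1 (SE 0.15, adjusted p = 0.455) and -0.05 for Ncl. The Npm1 value was -0.01 without sdAb-Con 48 h library a and -0.37 without library b. With the trend of length and GC content removed, Ncl had -0.36 (adjusted p = 0.0655). Of the other roles Nop58 had -0.36 in place of 0.03 and Utp20 had -0.19 in place of 0.08. None of these passed. The longest transcripts of Ncl, Nop58 and Utp20 have 8202, 9507 and 8821 bases, beside medians of 857.5, 639 and 729.

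Compared with the sdAb#07.81 groups, sdAb-Con 48 h lay nearer to sdAb#07.81 48 h than to sdAb#07.81 24 h in 42 of 49 factors by the log2 of mean CPM + 1, beside 72.4% of all genes tested. This is given as a description, since sdAb-Con 48 h against sdAb#07.81 24 h crosses both agent and time. Both comparisons share the sdAb#07.81 48 h libraries, and their values for a factor are therefore not independent.

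The rest of the pathway was read from a second list of 114 genes outside the set, of which 113 were tested. From 24 h to 48 h of sdAb#07.81, 67 of these were lower and 5 higher, with a median log2 difference of -0.42. By role, 3 of 9 further genes of RNA polymerase I transcription fell and 1 rose, 6 of 10 snoRNP assembly factors fell, 24 of 40 small subunit genes fell and 1 rose, 26 of 40 large subunit genes fell and 3 rose, and 8 of 14 genes of the RNA exosome fell. The steepest falls were those of Dis3, a nuclease of the exosome, with a log2 difference of -0.97 (SE 0.129, adjusted p = 4.8e-06), and of Mdn1, a giant ATPase that remodels the large subunit, with -0.96 (SE 0.125, adjusted p = 3.81e-06). Mdn1 gave 154 and 131 CPM at 24 h and 78.7 and 66.9 CPM at 48 h. Against the direction of the list, Nsa2 and Nop53, both of the large subunit, rose by 1.14 (SE 0.116, adjusted p = 1.47e-07) and 0.69 (SE 0.107, adjusted p = 2.99e-05). Nsa2 gave 174 and 183 CPM at 24 h and 377 and 413 CPM at 48 h. The other 3 that rose were Ddx24, Taf1d and Utp14a, with log2 differences of 0.65, 0.46 and 0.41.

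At 48 h, with sdAb#07.81 set against sdAb-Con, 3 of the 113 genes or 2.65% were lower and 1 or 0.885% was higher, below the 3.94% and 6.94% of all genes tested. Nop53 was lower by 0.45 on the log2 scale in sdAb#07.81 (log2 difference -0.45, SE 0.107, adjusted p = 0.0103), as were the rRNA methyltransferase Emg1 (log2 difference -0.39, SE 0.119, adjusted p = 0.0411) and Ruvbl2, an ATPase of snoRNP assembly (log2 difference -0.38, SE 0.116, adjusted p = 0.0387). Mdn1 was higher, with 78.7 and 66.9 CPM against 46.6 and 54.7 CPM in sdAb-Con 48 h (log2 difference 0.52, SE 0.125, adjusted p = 0.0124).

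**Figure D4:**
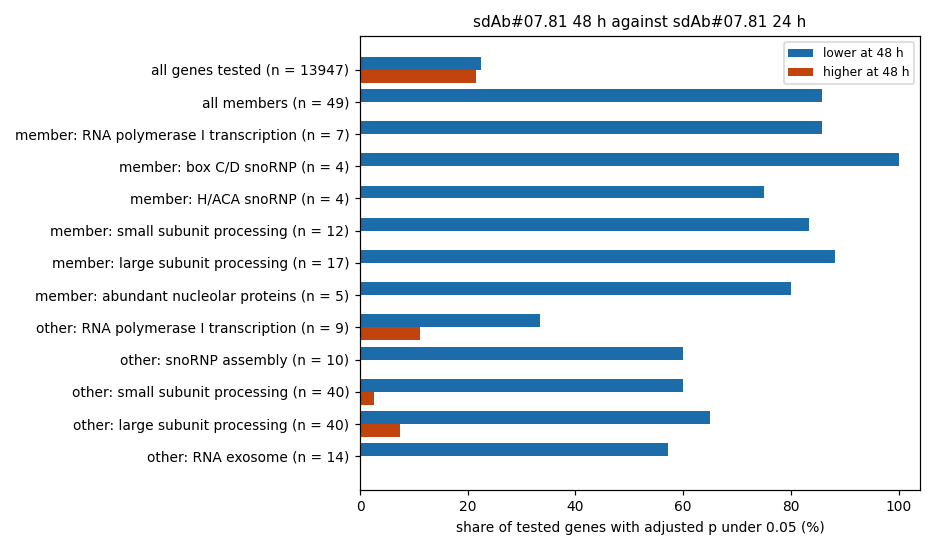
Share of tested genes lower (blue) or higher (red) at 48 h than at 24 h of sdAb#07.81, for all genes tested, the 49 factors (member) by role and the second list of the pathway (other). The 49 factors stand at 85.7% lower and 0 higher, against 22.4% and 21.4% of all genes tested.

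Because so many of the factors fell together, their promoters were searched for short motifs in RefSeq windows of build GRCm38.p6, from 250 bases before to 50 bases after the first start listed for each gene, and 43 of the 49 factors had a window. CACGTG, the palindromic E-box read by Myc with its partner Max and by other helix-loop-helix proteins, was held by 9 of 43 windows or 20.9%, beside 7.24% of 27025 windows in all and 10.2% of 9903 windows of genes tested. CCGGAAG on either strand, the core bound by ETS-family factors, was held by 17 windows or 39.5%, beside 9.12% of all and 18.9% of tested genes. For CCAAT on either strand the share was 34.9%, beside 39.3% of tested genes, for TATAAA it was 4.65% beside 6.85%, and for CCCGCC 62.8% beside 64.3%. None of these motifs contains another, and a match describes the sequence only.

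The E-box windows of the 5 factors with the steepest falls among the 9, and that of Ltv1, the one of the 9 that did not pass the test over time, are printed to show where the motif stands, chosen after their values were seen. Each runs 5′ to 3′ on the strand of the gene, with the E-box in capitals and up to 12 bases on either side within the window.
Utp20, chr10:88826765-88826789, minus strand: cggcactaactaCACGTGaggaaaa
Grwd1, chr7:45830740-45830767, minus strand: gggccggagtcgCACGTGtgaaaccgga
Tsr1, chr11:74898092-74898121, plus strand: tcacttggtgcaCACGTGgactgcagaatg
Mybbp1a, chr11:72441355-72441376, plus strand: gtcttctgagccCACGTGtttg
Nop2, chr6:125131811-125131840, plus strand: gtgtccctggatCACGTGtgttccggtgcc
Ltv1, chr10:13193092-13193121, minus strand: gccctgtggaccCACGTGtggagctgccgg
In Utp20, Grwd1, Tsr1, Mybbp1a and Ltv1 the E-box begins 38, 35, 25, 41 and 29 bases into the transcript, and in Nop2 it begins 60 bases before the start. The remaining holders were Pes1, Wdr43 and Rrn3, the last with 2 sites, and 7 of the 10 sites lay after the start. The 9 factors with an E-box had a median log2 difference of -0.91 from 24 h to 48 h, with 8 lower. The 34 factors with a window but no E-box had -0.66, with 29 lower. The difference between these sets was not tested, and no such split was made for CCGGAAG or over all genes tested. Grwd1, Ltv1, Nop2, Rrn3 and Tsr1 hold both motifs.

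Myc, the growth-promoting transcription factor, stood at 416 and 417 CPM at 24 h, at 282 and 245 CPM at 48 h of sdAb#07.81 and at 207 and 263 CPM in sdAb-Con 48 h. It fell from 24 h to 48 h (log2 difference -0.66, SE 0.122, adjusted p = 0.000189) and did not pass between the 48 h groups (log2 difference 0.17, SE 0.122, adjusted p = 0.393). Max, its binding partner, was measured between 77.5 and 87.5 CPM in the 6 libraries and passed in neither comparison. The part of Myc in the levels of the factors was not tested.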

How the data were processed

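RNA of 4T1 cells was sequenced as paired reads on an Illumina NovaSeq instrument. According to the submitters' processing notes, cutadapt 1.9.1, HISAT2 2.0.1 and HTSeq 0.6.1 were used, and a human genome build is named there although the gene identifiers are of mouse, so no coordinates of the tables are given. The authors deposited 2 tables of comparisons, whose signal column is the mean over 4 libraries of counts divided by size factors. The other columns hold the authors' own fold change, log2 fold change, standard error, test statistic, p-value and adjusted p-value, and were not used. There were 0 further columns of values per sample.

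A deposited mean is a sum of whole read counts, each multiplied by a weight of its library. The weights were read from genes with a single read and refined by least squares, and the counts were found by lattice reduction. Of 28712 genes, 28679 had 1 solution and 14 had none that could be used, nearly all of very high level, with 8.58% of the sum of the control table. Solved in each table alone, 2286 of 2286 genes gave equal counts for the shared libraries. Groups were assigned to recovered libraries by the table or tables that hold them, not by any gene's level. The counts are thus reconstructed from the deposited means, and they were tested on a log scale.

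Counts were scaled by median of ratios, genes with a mean of at least 10 were kept, and limma 3.58.1 in R 4.3.3 was fitted with a mean-variance trend to log2(CPM + 1) of the 3 groups together (two-sided, Benjamini-Hochberg over 13947 genes, threshold 0.05). The fit had 3 residual and 17.6 prior degrees of freedom. Replicates differed by more than sampling noise, with a chi-square of 10.4 to 13.4 per gene. Level per kb used the longest GENCODE M21 transcript. The recovery and the fit were tested on simulated data. The 49 members and all lists were chosen with earlier results of these data known. Each factor is named, with values per library for the largest difference in each comparison and the highest level per kb in each role, and outside the set the genes named are those with the 2 largest passing differences in each direction, Nupr1 and Myc (Max, Ruvbl2, Ddx24, Taf1d, Utp14a, and library values for some others, were added after values were seen). Python 3.11.15 with numpy 2.4.6, pandas 2.3.3 and matplotlib 3.10.9 was used for all other steps. Alternatives were scaling, pseudocount, filter, weights, groups fitted, a fold minimum, removal of trends and leaving out each library.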

Additional observations from a re-analysis of the deposited data

How the results depend on the processing

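No paired analysis was possible because the recovered libraries carry no replicate number. Against sdAb#07.81 24 h the count of lower factors, 42 as reported, ranged from 32 to 44 over 14 alternatives, with 32 under a minimum of 1.5-fold, 34 without 24 h library a and 36 without a filter. Of the 42 calls, 34 were kept in every alternative other than the fold minimum. The median log2 difference ranged from -0.92 to -0.52 when each library was left out, the lower value without 24 h library b. For 2 factors that did not pass, the sign changed when a library was left out, with log2 differences from -0.34 to 0.18 for Nop10 and from -0.27 to 0.04 for Polr1c. Against sdAb-Con 48 h, the count of 1 became 0 with total count scaling, without a filter, with voom weights and with a minimum of 1.5-fold, and 3 with upper-quartile scaling and with only 2 groups fitted, all of them lower, and it ranged from 0 to 2 when each library was left out, with 0 without either sdAb-Con library or sdAb#07.81 48 h library a and 2 without sdAb#07.81 48 h library b. With the trend of length and GC content removed it was also 1, but the gene was Wdr12 (log2 difference -0.67, adjusted p = 0.0138) and not Nhp2. The cause of these changes in the count was not tested. The median of the deposited means per kb over the 49 factors was 363 normalized counts in the control table and 495 in the time table with the longest transcript, and 939 and 1270 with the median transcript length. With 2 libraries a group, the spread within a group rests on 1 difference per gene, and limma shares it across genes.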
